A study of Mus musculus with 6 samples.

Results

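Genes of the B lymphocyte lineage were examined in mouse bone marrow cells that had been put through a depletion of B cells. The set held 9 genes, Dntt, Il7r, Ebf1, Vpreb1 and Igll1 of early B cell precursors, Pax5 and Cd79a, which are active from commitment to the mature cell, and Cd22 and Fcrla of more mature B cells. They were found as every probe set (the group of oligonucleotides that reads 1 transcript on an Affymetrix array) to which the platform annotation gave 1 symbol, that symbol being 1 of the 9. This gave 21 probe sets of 45037 and 9 genes of 18193. A further probe set that the annotation assigns to Vpreb1 and Vpreb2 together was left out by that rule.

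The arrays came from 3 ASXL1Mt samples, of marrow from mice that had received an ASXL1-MT transplant and had a disease like myelodysplastic syndrome, and from 3 mock samples, of marrow from mock-transplanted mice described as normal controls. ASXL1 is a chromatin regulator that is often truncated in that syndrome. Both groups were transplanted, and the labels state neither the age or strain of the mice nor what the mock mice received, nor whether a sample is 1 mouse or a pool. The p-values thus reflect how far the 3 samples of a group vary, and that variation may be technical. Per the labels the cells were myeloid marrow cells left after magnetic removal of cells with CD3e (T cells), B220 (most B lineage cells) and TER-119 (red cell precursors). The series text gives this depletion for both groups, and the source label writes the marker signs for mock alone.

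B cells arise in the marrow from lymphoid progenitors that respond to interleukin 7. The transcription factor EBF1 and then PAX5 commit them to the lineage, while the RAG enzymes and terminal transferase assemble the heavy chain gene. The heavy chain is first tested at the cell surface with a surrogate light chain made of VPREB1 and IGLL1, together with the signalling chains CD79A and CD79B. CD22, which dampens that signal, increases as B cells mature.

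The deposited logs were read as base 2, and every row had been shifted so that its median across the 6 arrays is 0. A positive value thus lies above that median and says nothing of how strongly the gene was expressed. A gene's value is the mean of its probe sets. A change is the ASXL1Mt mean minus the mock mean, and folds depend on that base. Part of the brightness could be read from the rounding of the values, and a probe set was called bright where its 3 highest arrays lay on the rounding step of logs of 8 and above. The median change of all genes was 0.11, and it was between 0.01 and 0.03 after cyclic loess, quantile normalization or setting array medians equal, so about 0.1 of any change below belongs to the whole table. Of 18193 genes tested with limma, 11.4% passed at an adjusted p under 0.05, 6.63% higher and 4.75% lower. The higher direction held 58.3% of those calls, but 46.6% after loess, 47.6% after quantile normalization and 49.3% once array medians were set equal. The probe sets of Asxl1 do not check the labels, since no label says which of them reads the introduced sequence. Of 16 measured marker genes of myeloid cells, 15 had a bright probe set, against 2 of the 9 B lineage genes and 51.8% of all genes.

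The mature B genes Cd22 and Fcrla were higher in ASXL1Mt marrow, by 3.44-fold and 3.45-fold, and they were the only B lineage genes of the 9 to pass the test. Dntt and Il7r, of the earliest stage, had changes of 2.08 and 1.60 on the log2 scale that did not pass. Ebf1, Vpreb1, Igll1, Pax5 and Cd79a had changes from -0.65 to -0.09, none of which passed, and all 5 were highest on the array of mock replicate 2. Of the 9 genes, 2 were called higher and 0 lower by limma, where 6.63% and 4.75% of all genes were, and the median change of the 9 was -0.09. With no adjustment, limma p-values under 0.05 were met by 4 genes in the higher direction and 0 in the lower one, where 18.1% and 10.9% of all genes met them. In bulk RNA, fewer cells of a type and less RNA per cell cannot be told apart.

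**Figure D1:**
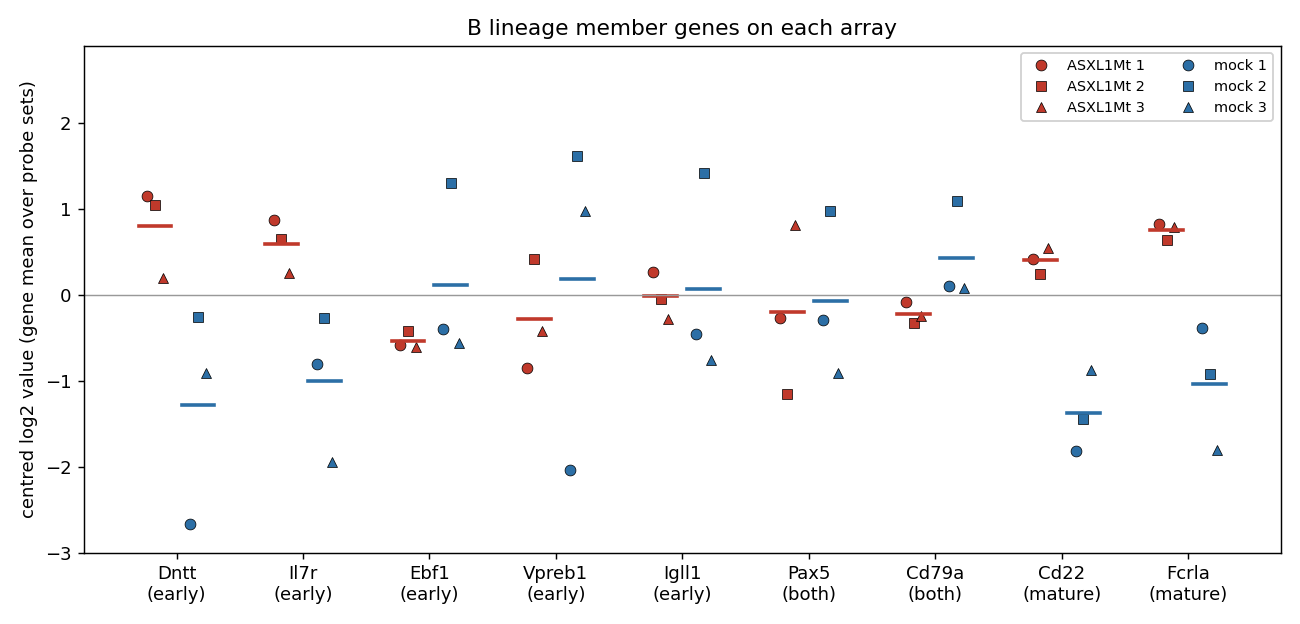
Centred log2 values of the 9 B lineage genes (vertical axis, mean over each gene's probe sets) on the 3 ASXL1Mt arrays (red) and the 3 mock arrays (blue). Marker shapes give the replicate and bars the group means. For Dntt, Il7r, Cd22 and Fcrla the ASXL1Mt values lie above 0 and the mock values below it, while mock replicate 2 is the highest array for Ebf1, Vpreb1, Igll1, Pax5 and Cd79a.

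CD22 is a sialic acid binding receptor that recruits phosphatases and restrains signalling by the B cell receptor. The gene value of Cd22 was 0.42, 0.25 and 0.55 in ASXL1Mt replicates 1 to 3, against -1.81, -1.44 and -0.87 in mock replicates 1 to 3. All ASXL1Mt values lay above all mock values, and the spread was wider in mock. The change was 1.78 (SE 0.27), with an adjusted p = 0.0216 by limma. Neither probe set passed alone. The probe set 1419768_at read 0.48, 0.14 and 0.86 in ASXL1Mt and -1.44, -0.14 and -1.52 in mock, a change of 1.53 (limma adjusted p = 0.103). The probe set 1419769_at read 0.36, 0.35 and 0.23 in ASXL1Mt and -2.18, -2.74 and -0.23 in mock, a change of 2.03 (limma adjusted p = 0.136). The low mock arrays of these probe sets differ, replicates 1 and 3 for the first and replicates 1 and 2 for the second. Neither was bright.

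The call of Cd22 rested on all 3 ASXL1Mt arrays and on mock replicate 2. The limma adjusted p was 0.0615, 0.0714 and 0.0868 without ASXL1Mt replicates 1, 2 and 3 and 0.0713 without mock replicate 2, at changes from 1.71 to 1.86. A variance trend gave a limma adjusted p = 0.0505, trend and robust settings 0.103, and reading the gene from its least variable probe set 0.0661. Without mock replicate 3 the gene (limma adjusted p = 0.0386) and its probe set 1419769_at (limma adjusted p = 0.0479) both passed.

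FCRLA is an intracellular protein related to Fc receptors that binds immunoglobulin inside B cells. The gene value of Fcrla was 0.83, 0.64 and 0.79 in ASXL1Mt replicates 1 to 3, against -0.38, -0.92 and -1.81 in mock replicates 1 to 3. The groups did not overlap, and the ASXL1Mt arrays lay close together. The change was 1.79 (SE 0.38), with an adjusted p = 0.0438 by limma. All 3 of its probe sets had positive changes, of different size. The probe set 1419907_s_at read 1.24, 1.11 and 0.84 in ASXL1Mt and -0.85, -0.84 and -1.09 in mock. Its change of 1.99 (SE 0.18) had an adjusted p = 0.0136 by limma, and it was the only 1 of the 21 probe sets to pass, where 8.1% of all probe sets were called, 4.73% higher and 3.37% lower. With no adjustment, limma p-values under 0.05 were met by 6 of the 21 in the higher direction and 1 in the lower one, where 16.1% and 10.2% of all probe sets met them. The probe set 1425802_a_at read 1.05, 0.98 and 0.47 in ASXL1Mt and -0.47, -1.21 and -3.49 in mock, a change of 2.56 (limma adjusted p = 0.125) that drew on the low mock replicate 3. The groups overlapped only in 1419908_at, at 0.19, -0.18 and 1.05 in ASXL1Mt and 0.18, -0.70 and -0.84 in mock, a change of 0.81 (limma adjusted p = 0.315). None of the 3 was bright.

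For the Fcrla gene the limma adjusted p was 0.11, 0.119 and 0.137 without ASXL1Mt replicates 1, 2 and 3, and 0.108 and 0.0561 without mock replicates 2 and 3. Its change ran from 1.40 without mock replicate 3 to 2.11 without mock replicate 1. For 1419907_s_at the limma adjusted p was 0.0613 and 0.0608 without ASXL1Mt replicates 2 and 3 and 0.0528 and 0.0530 without mock replicates 2 and 3, while its change stayed between 1.90 and 2.10. The number of all genes called also fell with each array left out, from 2072 on all 6 arrays to between 192 and 1033.

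**Figure D2:**
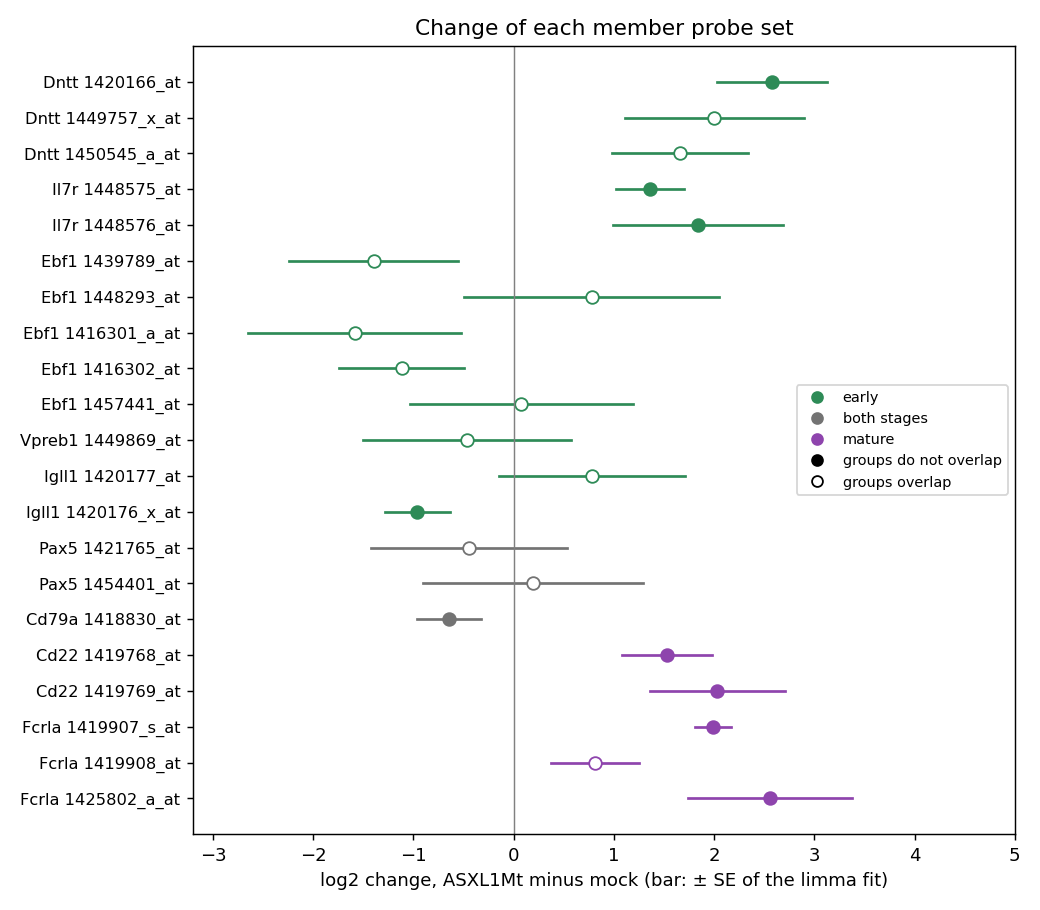
Log2 change, ASXL1Mt minus mock (horizontal axis), of each of the 21 probe sets with its standard error from the limma fit, coloured by stage. Filled points mark probe sets whose groups do not overlap. All probe sets of Dntt, Il7r, Cd22 and Fcrla lie above 0, while those of Ebf1, Igll1 and Pax5 lie on both sides of it.

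Dntt encodes terminal transferase, which adds untemplated bases at the joints of rearranging antigen receptor genes. The gene value of Dntt was 1.15, 1.05 and 0.20 in ASXL1Mt replicates 1 to 3, against -2.66, -0.26 and -0.91 in mock replicates 1 to 3. The groups did not overlap, though ASXL1Mt replicate 3 and mock replicate 2 were close. The change of 2.08 (SE 0.68) had an adjusted p = 0.114 by limma. The probe set 1420166_at, which is not bright, separated the groups most clearly, at 1.17, 1.17 and 0.84 in ASXL1Mt and -2.73, -1.004 and -0.84 in mock, a change of 2.58 (limma adjusted p = 0.0526). It passed with a variance trend (limma adjusted p = 0.0419), with trend and robust settings (limma adjusted p = 0.0406) and without mock replicate 1 (limma adjusted p = 0.0452, change 1.98). Such a trend is on intensity, and centring removed the levels it needs. Of all probe sets, 4783 passed with the trend and 5816 with trend and robust settings, against 3646 as reported. The gene passed when read from 1420166_at, its probe set of smallest spread (limma adjusted p = 0.0297). That choice picks for the low spread within groups that the test divides by, which favours passing. With it 3898 of all genes passed, against 2072 as reported. In the bright probe sets 1449757_x_at and 1450545_a_at the groups overlapped, since mock replicate 2 lay above ASXL1Mt replicate 3. The first had a change of 2.003 (limma adjusted p = 0.235) and the second of 1.66 (limma adjusted p = 0.20). Mock replicate 1 was the lowest array in all 3 probe sets, and without it the change of the gene was 1.39.

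Il7r encodes the chain of the interleukin 7 receptor that gives lymphoid progenitors their survival signal. Its gene value was 0.87, 0.65 and 0.26 in ASXL1Mt, against -0.81, -0.27 and -1.94 in mock. No mock array reached an ASXL1Mt array, and ASXL1Mt replicate 3 was the lowest of its group, as it was for Dntt. The change of 1.60 (SE 0.47) had an adjusted p = 0.0884 by limma. Its probe set 1448575_at read 0.74, 0.75 and 0.24 in ASXL1Mt and -1.34, -0.24 and -0.76 in mock, a change of 1.36 (limma adjusted p = 0.0736). It passed with trend and robust settings (limma adjusted p = 0.0478). The gene passed when read from it as the probe set of smallest spread (limma adjusted p = 0.0424). The limits given for these settings at Dntt hold here too. The probe set 1448576_at read 1.00, 0.55 and 0.28 in ASXL1Mt and -0.28, -0.31 and -3.12 in mock, a change of 1.84 (limma adjusted p = 0.246). Without mock replicate 3 the change of the gene was 1.13. Neither probe set was bright.

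EBF1 is the transcription factor that opens the B lineage programme. The gene value of Ebf1 was -0.58, -0.42 and -0.61 in ASXL1Mt, against -0.40, 1.30 and -0.56 in mock. In this mean over 5 probe sets mock replicate 2 stood apart and the other 5 arrays lay close together. The change of -0.65 (SE 0.53, adjusted p = 0.480 by limma) was -0.06 without that array. The 5 probe sets disagreed, with changes of -1.59 for 1416301_a_at, -1.40 for 1439789_at and -1.12 for 1416302_at, and of 0.08 for 1457441_at and 0.78 for 1448293_at. None passed, and the groups overlapped in all 5. The change of 1457441_at, the bright one, was -0.0205 after quantile normalization, -0.0297 after loess and -0.0057 with equal medians.

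VPREB1 and IGLL1 together form the surrogate light chain. The only probe set of Vpreb1, 1449869_at, read -0.85, 0.42 and -0.42 in ASXL1Mt, against -2.04, 1.62 and 0.97 in mock. The mock arrays held both the lowest and the highest value. The change was -0.47 (SE 1.03, adjusted p = 0.809 by limma), and leaving out mock replicate 2 made it 0.25, leaving out mock replicate 1 made it -1.58. Igll1 stood at 0.27, -0.05 and -0.28 in ASXL1Mt, against -0.45, 1.42 and -0.75 in mock. Here too mock replicate 2 was highest, and the 3 ASXL1Mt arrays lay between it and the other mock arrays. The change of Igll1 was -0.09 (SE 0.61, adjusted p = 0.942 by limma), and 0.58 without mock replicate 2. The change of the gene hid probe sets of opposite sign. The probe set 1420176_x_at read -0.25, -0.32 and -0.33 in ASXL1Mt and 0.40, 1.34 and 0.25 in mock, so the groups did not overlap, at a change of -0.96 (limma adjusted p = 0.139). The probe set 1420177_at read 0.79, 0.23 and -0.23 in ASXL1Mt and -1.30, 1.504 and -1.75 in mock, a change of 0.78 (limma adjusted p = 0.653). Neither was bright, and mock replicate 2 was the highest array in both.

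PAX5 is the factor that holds cells in the B lineage, and CD79A is a signalling chain of the B cell receptor and its precursor form. Pax5 stood at -0.27, -1.15 and 0.81 in ASXL1Mt, against -0.29, 0.98 and -0.91 in mock. The groups overlapped widely, the change was -0.13 (SE 0.70, adjusted p = 0.927 by limma), and it was 0.40 without mock replicate 2. The probe sets of Pax5 differed by sign, with -0.45 for 1421765_at and 0.19 for 1454401_at. The only probe set of Cd79a, 1418830_at, read -0.09, -0.32 and -0.25 in ASXL1Mt, against 0.11, 1.09 and 0.09 in mock. Every ASXL1Mt array lay below every mock array, though mock replicates 1 and 3 lay much nearer to ASXL1Mt than mock replicate 2 did. The change of -0.65 (SE 0.31) had an adjusted p = 0.243 by limma, and the change was -0.32 without mock replicate 2.

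The array of mock replicate 2 was the highest for 5 of the 9 genes and 8 of the 21 probe sets, where it was the highest for 14.6% of all genes and 14.8% of all probe sets. It was the highest for none of the Dntt, Il7r, Cd22 and Fcrla gene values. Its whole-array median was -0.03, between those of the other mock arrays at -0.05 and the ASXL1Mt arrays at 0.02 to 0.05. The SD between replicates was larger in mock than in ASXL1Mt for 8 of the 9 genes, the exception being Pax5. It ran from 0.47 to 1.95 in mock. The share of all genes with the larger SD in mock was not counted, so this may not be particular to the 9.

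The groups did not overlap in 7 of the 21 probe sets in the higher direction and in 2 in the lower one, where this held for 21.7% and 13.7% of all probe sets. By stage, these were 4 of 5 mature probe sets, all higher, 3 of 13 early ones higher and 1 lower, and 1 of 3 of Pax5 and Cd79a lower. Averaged over genes, the mature pair was 0.62, 0.44 and 0.67 in ASXL1Mt, against -1.10, -1.18 and -1.34 in mock. The 3 arrays of each group lay close together on this mean and the groups were far apart. Each gene alone varied more in mock. The SD there was 0.12 for the mean, but 0.47 for Cd22, lowest in replicate 1, and 0.72 for Fcrla, lowest in replicate 3. The mean of the 5 early genes was 0.17, 0.33 and -0.17 in ASXL1Mt, against -1.27, 0.76 and -0.64 in mock, and here the mock arrays spanned the ASXL1Mt arrays. Pax5 and Cd79a averaged -0.18, -0.74 and 0.28 in ASXL1Mt, against -0.09, 1.03 and -0.41 in mock. The early mean minus the mature mean was -0.47 ± 0.36 in ASXL1Mt and 0.82 ± 1.06 in mock (SD, n = 3 each), a difference of -1.29 that was not tested, because the genes were chosen with earlier results of these data known. Leaving out mock replicate 2 made it -0.73, and leaving out mock replicate 1 made it -1.79. It was -0.20 with Pax5 and Cd79a counted as mature and -1.54 with them counted as early.

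**Figure D3:**
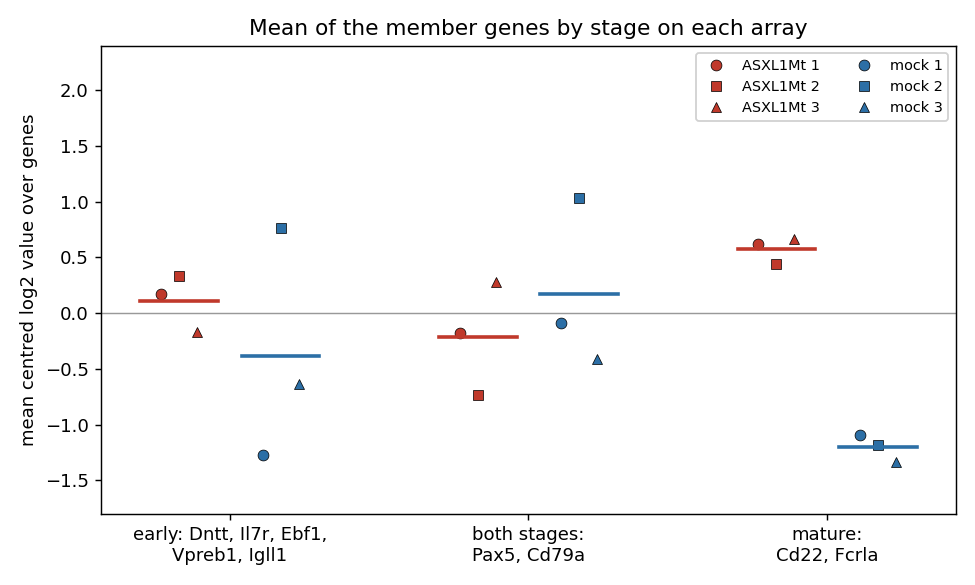
Mean centred log2 value (vertical axis) of the 5 early genes, of Pax5 and Cd79a, and of the mature genes Cd22 and Fcrla on each ASXL1Mt array (red) and mock array (blue), with group means as bars. The groups are apart for the mature genes alone, from 0.44 to 0.67 in ASXL1Mt and from -1.34 to -1.10 in mock.

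The promoters of Vpreb1, Igll1, Cd79a, Cd22 and Fcrla are shown because they are the 5 of the 9 that hold the letters CAGGTG on either strand, the form of E-box (a site for basic helix-loop-helix factors) classically tied to the E proteins of early lymphocytes. The sequences are the 250 bases before the transcript start in RefSeq on GRCm38.p6, 5′ to 3′ on the gene's strand, from which all 9 genes had an entry. Capitals mark CAGGTG or its reverse complement, and CCCNNGGG, the core of the palindrome that EBF1 binds. The windows lie at chr16:16869256-16869505, minus strand for Vpreb1, at chr16:16863986-16864235, minus strand for Igll1, at chr7:24897247-24897496, plus strand for Cd79a, at chr7:30879029-30879278, minus strand for Cd22 and at chr1:170927584-170927833, minus strand for Fcrla. Those of Cd22 and Fcrla start at a transcript inside the outer limits of the gene.
Vpreb1: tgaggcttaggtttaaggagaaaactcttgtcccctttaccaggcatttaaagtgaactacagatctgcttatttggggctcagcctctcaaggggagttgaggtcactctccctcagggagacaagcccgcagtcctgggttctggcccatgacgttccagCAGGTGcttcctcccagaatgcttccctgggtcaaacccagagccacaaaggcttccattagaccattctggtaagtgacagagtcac
Igll1: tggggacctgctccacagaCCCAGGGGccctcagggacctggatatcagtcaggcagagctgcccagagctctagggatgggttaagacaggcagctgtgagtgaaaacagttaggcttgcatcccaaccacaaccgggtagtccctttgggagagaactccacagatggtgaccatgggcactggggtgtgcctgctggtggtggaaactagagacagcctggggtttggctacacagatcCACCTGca
Cd79a: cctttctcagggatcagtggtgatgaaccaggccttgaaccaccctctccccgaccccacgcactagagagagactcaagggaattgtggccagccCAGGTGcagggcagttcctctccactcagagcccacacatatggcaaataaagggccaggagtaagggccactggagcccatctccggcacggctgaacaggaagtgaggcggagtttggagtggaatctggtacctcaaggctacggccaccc
Cd22: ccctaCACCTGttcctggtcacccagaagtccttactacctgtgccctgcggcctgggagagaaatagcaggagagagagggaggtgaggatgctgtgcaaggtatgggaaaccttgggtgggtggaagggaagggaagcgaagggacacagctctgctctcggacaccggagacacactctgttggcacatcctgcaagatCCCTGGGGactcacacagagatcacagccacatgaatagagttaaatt
Fcrla: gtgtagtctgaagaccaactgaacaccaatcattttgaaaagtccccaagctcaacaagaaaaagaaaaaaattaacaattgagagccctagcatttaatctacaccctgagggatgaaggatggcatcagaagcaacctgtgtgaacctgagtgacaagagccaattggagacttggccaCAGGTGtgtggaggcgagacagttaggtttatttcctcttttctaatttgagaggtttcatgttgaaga

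The CAGGTG letters began 8 bases before the start in Igll1, 69 in Fcrla, 88 in Vpreb1, 154 in Cd79a and 245 in Cd22, and 19.4% of all genes in the table hold them in such a window. Genes with these letters were thus found both among those called higher, Cd22 and Fcrla, and among those highest in mock replicate 2. The EBF1 core was present in 2 of the 9, Igll1 and Cd22, where 13.4% of all genes hold it. Any E-box, CANNTG, of which CAGGTG is 1 form, was present in all 9 and in 69.3% of all genes. The ETS core AGGAAG, as bound by PU.1, was present in Il7r, Vpreb1 and Cd79a (32.3% of all genes), and the Ikaros core TGGGAA in Ebf1 and Cd22 (24.1% of all genes). All were searched on both strands. A match is a description of the letters and not a site shown to be bound.

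Around the 9 genes, other genes of the lineage moved in both directions. The counts below stand beside 6.63% of all genes called higher by limma and 4.75% called lower. Of 25 measured genes of early B cells and their progenitors, 5 were higher and 1 was lower by limma, at a median change of 0.24, or 0.13 relative to all genes. Flt3, a growth factor receptor of lymphoid progenitors, was 1.65, 1.39 and 1.64 in ASXL1Mt, against -2.57, -1.39 and -1.85 in mock (change 3.50, limma adjusted p = 0.010). Ly6d, which marks progenitors that turn to the B lineage, was higher by 8.001-fold. Arpp21, a phosphoprotein of early B cells, was higher by 2.99-fold. Bst1, a surface enzyme also present on myeloid cells, was lower by 11.9-fold (limma adjusted p = 0.00824), at -2.46, -1.39 and -2.12 in ASXL1Mt and 1.53, 1.44 and 1.76 in mock. Rag1 and Rag2, which encode the enzyme that cuts antigen receptor genes for joining, were named after their values were seen, and neither passed. Rag1 was -2.39, 1.55 and -1.55 in ASXL1Mt and -1.70, 4.42 and 2.96 in mock (change -2.69, limma adjusted p = 0.414). Rag2 was -0.98, 2.38 and 2.39 in ASXL1Mt and 0.07, -0.45 and -0.07 in mock (change 1.41, limma adjusted p = 0.406). Their changes had opposite signs and the groups overlapped in both, with Rag1 highest in mock replicate 2 and Rag2 highest in ASXL1Mt replicate 3.

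Of 15 measured genes active at both stages, 4 were higher and 2 lower by limma, at a median change of 0.14, or 0.03 relative to all genes. Pou2f2, a factor of immunoglobulin gene transcription, was higher by 2.84-fold and the kinase gene Blk by 2.43-fold. Cnp was higher by 1.97-fold. Pik3ap1, an adaptor of phosphoinositide 3-kinase signalling, was lower by 3.25-fold. Cd79b, the partner of Cd79a and named after its values were seen, was called higher, at 0.55, 0.29 and 0.62 in ASXL1Mt and -0.29, -0.42 and -0.69 in mock (change 0.96, limma adjusted p = 0.0315). Its groups were separated in the direction opposite to those of Cd79a. Ighm, the IgM heavy chain, likewise named after its values were seen, was -0.08, -1.63 and -1.49 in ASXL1Mt and 2.49, 0.11 and 0.24 in mock (change -2.02, limma adjusted p = 0.171).

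Of 24 measured genes of mature B cells, 4 were higher and 4 lower by limma, at a median change of -0.10, or -0.21 relative to all genes. Fcer2a, the low affinity IgE receptor of mature B cells, was 0.74, 1.49 and 3.06 in ASXL1Mt, against -1.20, -1.62 and -1.68 in mock, higher by 9.60-fold (limma adjusted p = 0.0324). Bach2, a repressor of plasma cell fate, was higher by 2.86-fold. Cd55, a complement regulator present on many blood cells, was lower by 4.55-fold and S1pr1, a receptor that guides exit from tissues, by 2.94-fold. The B cell surface gene Ms4a1, named after its values were seen, was 0.02, -0.56 and -2.10 in ASXL1Mt and 1.62, 0.57 and -0.21 in mock (change -1.54, limma adjusted p = 0.230). Its change and that of Ighm had the sign opposite to those of Cd22 and Fcrla.

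With an array left out, the counts of higher genes ran from 1 to 4 for the early list, and from 0 to 2 for each of the other lists. For the early list they were 2, 1 and 3 without ASXL1Mt replicates 2 and 3 and mock replicate 3. For the genes of both stages and the mature genes they fell without any of the 6 arrays. Over all genes the higher calls fell too, from 1207 to between 73 and 509. The lower calls over all genes fell from 865 to between 119 and 524. The count of lower early genes was 2 without ASXL1Mt replicate 1, and that of lower mature genes was 1 in all 6 fits. For the genes of both stages it was 1 without ASXL1Mt replicate 1 and mock replicates 2 and 3, and 0 without ASXL1Mt replicates 2 and 3.

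**Figure D4:**
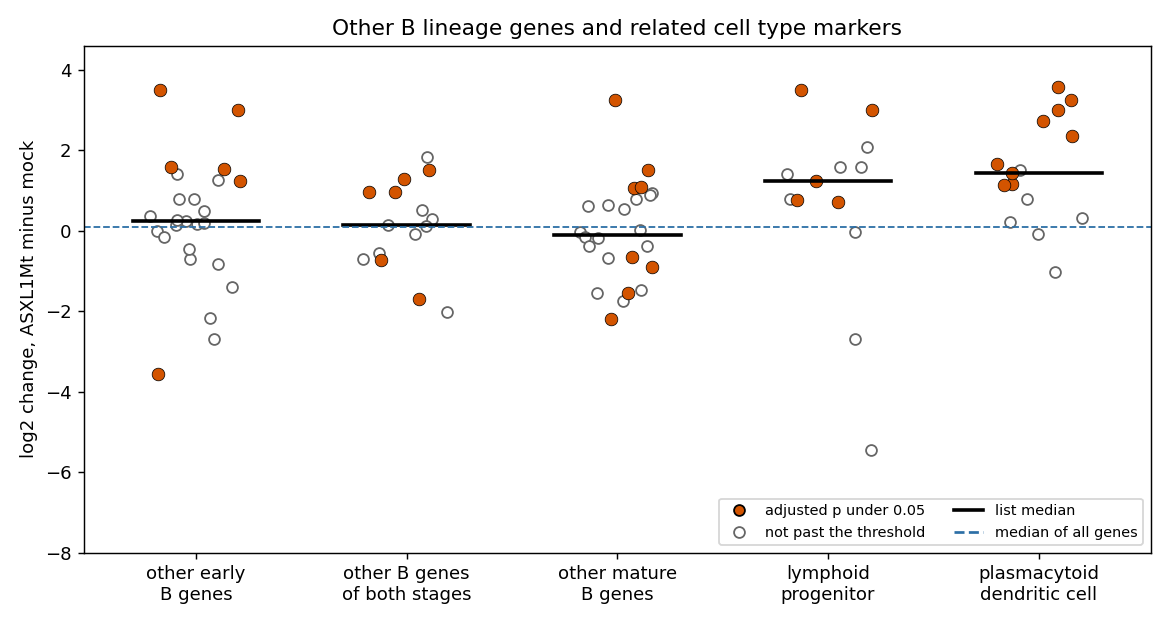
Log2 change, ASXL1Mt minus mock (vertical axis), of the measured genes of 5 lists, with genes past the limma threshold filled. Thick bars are list medians, and the dashed line is the median of all genes, 0.11. The medians of the 3 B lineage lists, from -0.10 to 0.24, lie near that line. The medians of lymphoid progenitor and plasmacytoid dendritic cell markers are 1.24 and 1.43. The lists are not separate. The progenitor list shares Flt3, Ly6d, Rag1, Rag2, Tcf3 and Sox4 with the early list and holds Dntt and Il7r. Its mean change is 0.66.

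Marker lists of other cell types differed in direction. Of all genes, 6.63% were called higher and 4.75% lower by limma. At an unadjusted limma p under 0.05, 18.1% of all genes were higher and 10.9% lower. Of 15 measured genes of plasmacytoid dendritic cells, which share several genes with B cells, 9 were higher and 0 lower by limma, at a median change of 1.43, with 10 higher and 1 lower at an unadjusted p below 0.05. The mean of this list ran from 0.39 to 0.73 in ASXL1Mt and from -1.10 to -0.69 in mock. Siglech was 1.60, 1.36 and 0.92 in ASXL1Mt, against -3.89, -0.92 and -2.02 in mock, and Klk1 was higher by 9.53-fold, Ptprf by 6.61-fold and Ly6d as given above. The 6 that did not pass included Tlr7, named after its values were seen, with a change of -1.03 (limma adjusted p = 0.0586). Of 13 lymphoid progenitor genes, 5 were higher and 0 lower by limma (8 and 1 unadjusted), with the list mean from -0.05 to 0.42 in ASXL1Mt and from -0.99 to 0.03 in mock. Besides Flt3, Ly6d and Sox4, which was higher by 2.37-fold, the 5 were Id2 at 1.70-fold and Lmo2 at 1.65-fold. The list holds Dntt and Il7r and shares Flt3, Ly6d, Rag1, Rag2, Tcf3 and Sox4 with the early B list. Its median change was 1.24 and its mean change 0.66. The gene lower without adjustment was Id3, named after its values were seen, with a change of -5.46 (limma adjusted p = 0.0625).

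Of 14 T cell genes 2 were higher and 0 lower by limma, Cd8b1 by 12.8-fold and Cd8a by 7.95-fold. Unadjusted, 3 were higher and 1 lower, beside 18.1% and 10.9% of all genes. The lower one was Cd3d, named after its values were seen, lower by 7.04-fold (limma adjusted p = 0.0613) with groups that did not overlap. The list mean ran from -0.15 to 0.77 in ASXL1Mt and from -0.98 to 0.03 in mock. Of 12 genes of NK and innate lymphoid cells 3 were higher and 1 lower, with mock replicate 1 apart at -1.89 against 0.21 and 0.07 in mock replicates 2 and 3. They were Klrd1 by 7.19-fold, Klrk1 by 2.84-fold and Id2, while Nkg7 was lower by 2.27-fold. Of 7 plasma cell genes 1 was higher, Slamf7 by 2.37-fold, and 0 lower by limma (1 and 2 unadjusted), and the list mean ran from -0.30 to -0.06 in ASXL1Mt and from -0.04 to 0.38 in mock. Of 16 myeloid genes 0 were higher and 5 lower by limma (0 and 7 unadjusted), among them Csf3r by 2.53-fold, Itgam by 2.24-fold, Elane by 2.08-fold and Fcgr3 by 1.83-fold. Of 9 basophil and mast cell genes 0 were higher and 3 lower by limma (0 and 5 unadjusted), Fcer1a with a change of -7.17, Hdc by 5.23-fold and Csf2rb by 2.14-fold. The myeloid mean ran from -0.25 to -0.12 in ASXL1Mt and from 0.10 to 0.31 in mock, and the basophil and mast cell mean from -1.24 to -0.48 in ASXL1Mt and from 0.53 to 1.09 in mock. The part of any of these cell types in the values of Cd22, Fcrla, Dntt and Il7r was not tested, and since centring removed the levels it cannot be said which markers are at 0.

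Among 9780 genes with an SD of at least 0.5 over the 6 arrays, those whose pattern was most like the mean of the 9 B lineage genes were 1190005I06Rik, Atp5g1, Gckr, Snn and Mitf, with Pearson r from 0.987 to 0.994 over 6 arrays, given as a description. All 5 were low in mock replicates 1 and 3 and highest in mock replicate 2, as was the mean of the 9 at 0.20, 0.12 and 0.12 in ASXL1Mt and -0.97, 0.39 and -0.74 in mock. None of the 5 passed limma's test.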

How the data were processed

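Expression was measured on Affymetrix arrays in 3 ASXL1Mt and 3 mock samples, grouped by their titles. MAS5 produced the signals, per the submitters' processing notes. The deposited values are log2 values as far as the values show: no label gives the log base, the centring or a scaling. Row medians were 0 to within 5e-07, and in 425 probe sets the lowest arrays were tied, as a floor gives. The number of arrays limits the precision. Symbols came from the platform annotation (1 symbol for 34945 probe sets, several for 932, none here for 9160), updated by gene ID to RefSeq of GRCm38.p6 for 34741. Bright probe sets numbered 17205 (38.2%), with a median SD within groups of 0.18, against 0.81 for the others.

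All probe sets, and all gene means, were fitted in R 4.3.3 with limma 3.58.1 (lmFit, then eBayes), with group as the only term and Benjamini-Hochberg adjustment over the whole table at a threshold of 0.05, two-sided. Tested on simulated data for this comparison over 45037 probe sets, the fit recovered 0% of log2 changes of 1, 44.8% of changes of 2 and 54.5% of changes of 4. There only 67, 67 and 66 probe sets were changed by these sizes, while 3646 were called in the data. With so few changed the adjustment is stricter, so these rates do not carry over to the data. The 9 genes and all gene lists were chosen with earlier results of these data known. Named genes were the 9, up to 4 called genes of largest change per list, and the 5 nearest in pattern among those with an SD of at least 0.5. Others are said to be chosen after their values were seen. Alternatives were other normalizations, variance models, bright probe sets, a left-out array and a replicate block. The reported fit kept all probe sets, and the only filter on signal tried was the restriction to bright ones, since centring removed exact levels.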

Additional observations from a re-analysis of the deposited data

How the results depend on the processing

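Across alternatives the Cd22 and Fcrla changes kept their sign. The other limits are those of probe sets not called bright, unknown levels and 3 arrays a group. The count of B lineage probe sets called higher, 1 as reported, was 2 with a variance trend, 3 with trend and robust settings, 0 on bright probe sets only, where 3 of the 21 remain to be tested, and 0 with a replicate block, and leaving out 1 array gave 0 to 2. The count of genes called higher, 2 as reported, was 1 with a trend, 1 with trend and robust settings, 1 with ordinary t statistics, 3 (Dntt, Il7r and Fcrla) with the probe set of smallest spread, 0 on bright probe sets only, where 2 of the 9 genes can be tested, and 0 with the replicate block, and leaving out 1 array gave 0 to 2. No probe set and no gene of the 9 was called lower in any of these fits. Of all genes, 2535 were called with a trend and 2912 with trend and robust settings, against 2072 as reported. With the probe set of smallest spread 3898 were called, a choice that favours a low spread within groups. The titles share replicate numbers, but same-numbered arrays did not deviate together over all probe sets (correlations of -0.009, -0.012 and -0.009). No pairing by number was thus seen. Only 38.2% of the probe sets are bright, and the noise of the others could hide one. Under the block 0 of all 18193 genes passed, against 2072 as reported, with 2754 higher and 1814 lower at an unadjusted p under 0.05. There the limma adjusted p was 0.0985 for Cd22 and 0.119 for Fcrla. Counts in the 3 other B lineage lists were 0 in both directions under the block. On bright probe sets only, 9 early genes were higher and 3 lower and 4 genes of both stages were lower, and after quantile normalization, loess or equal medians 2 early genes were lower. Calls over all genes rose as well. On bright probe sets 2600 of 9421 genes tested were higher and 1528 lower. That filter reads the 3 highest arrays, so it can keep a probe set through its higher group alone. Its counts are thus no independent check of the calls. After those normalizations 1024 to 1077 of all 18193 genes were lower, against 865 as reported. With an array left out the counts ran from 1 to 4 higher and 1 to 2 lower for early genes, from 0 to 2 in each direction for genes of both stages, and from 0 to 2 higher and 1 to 1 lower for mature genes. The early minus mature difference was -0.20 with Pax5 and Cd79a counted as mature and -1.54 with them counted as early. It ran from -1.79 to -0.73 over the fits that leave out 1 array. It could not be had on bright probe sets, since neither mature gene has one. Signs turned only in values that did not pass. The change of Ebf1 1457441_at was -0.0205 (quantile), -0.0297 (loess) and -0.0057 (equal medians) and from -0.78 to 1.07 over the fits on 5 arrays. The Ebf1 gene was 0.0757 on bright probe sets. With an array left out Ebf1 1448293_at ran from -0.20 to 2.15, Vpreb1 from -1.58 to 0.25, the Igll1 gene from -0.50 to 0.58, the Pax5 gene from -0.63 to 0.40, Pax5 1421765_at from -1.32 to 0.25 and Pax5 1454401_at from -0.72 to 1.08. The cause was not tested.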
